A study of Oryza sativa Japonica Group with 12 samples.

Results

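Glutamine synthetase joins ammonium to glutamate to make glutamine, and its rice gene family was followed here across 12 microarrays of shoot bases. The family was taken as every probe set whose annotation names 1 gene with the symbol or synonym GLN1-1, GLN1-2 (also written GS1;2), GLN1-3 or GLN2. This gave 4 genes on 5 probe sets, of 17905 genes with a probe set of their own and 57194 probe sets tested. GLN1-1 (LOC4330649) was read by Os.7909.1.S1_at, GLN1-2 (LOC4332108) by Os.12728.1.S1_at and GLN1-3 (LOC4333896) by Os.48875.1.S1_at. GLN2 (LOC4337272) had 2 probe sets, Os.7879.1.S1_at (probe set A) and Os.7879.2.S1_at (probe set B), which share their gene and are not independent measurements of it.

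In plants the enzyme works with glutamate synthase (GOGAT), which returns glutamine's amide nitrogen to 2-oxoglutarate and so closes the cycle through which ammonium enters amino acids. GLN1-1, GLN1-2 and GLN1-3 encode cytosolic forms. In rice the first is known for nitrogen reuse in leaves and grain filling, the second for assimilation of ammonium taken up by roots and for the growth of tillers, and the third for its expression in the spikelet. GLN2 encodes the plastid form, which in leaves recaptures the ammonium set free by photorespiration and supplies ferredoxin-dependent GOGAT (Fd-GOGAT) with glutamine.

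The arrays compare wild-type rice of the cultivar Nipponbare with homozygous gs1;2 mutants of the same cultivar, in which GLN1-2 is the mutated gene. All plants were raised in hydroponics with 1 mM ammonium as the only nitrogen source and were harvested at 7 or 11 d, and total RNA was extracted from the basal 5 mm of their shoots. Each of the 4 groups (wild type at 7 d, gs1;2 at 7 d, wild type at 11 d, gs1;2 at 11 d) holds 3 arrays, called biological replicates in the design text. The sources used here do not state the kind of lesion, the number of mutant lines, the number of plants behind an array or the position of the GLN1-2 probes relative to the lesion.

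Values are log2 signals, on which 1 unit is a doubling, and array medians lay between 4.94 and 5.00. A signal depends on the probes as well as on the transcript, so each probe set is compared between arrays, and levels of different probe sets are not ranked. Array pairs within a group correlated at 0.994 to 0.997 over all probe sets, and pairs of a wild-type 11 d array with an array of another group at 0.978 to 0.985, the lowest range. The growth notes attached to every sample include a passage on samples 13 to 36, kept for 18 d in another chamber, and the wild-type 11 d arrays carry the numbers 13 to 15 in their titles. Another growth condition of that group cannot be told apart from genotype at 11 d or from age in wild type. In whole tissue, fewer cells of a type and less RNA per cell cannot be told apart either. Of the harvested tissue's markers, the 5 measured class I KNOX homeobox genes of the shoot meristem had mean signals of 8.45 to 8.82 on single arrays, and some of them differed between groups at 11 d, as counted further on.

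GLN1-2, the mutated gene, was the family member with the lowest signal relative to wild type in gs1;2, at both ages. In wild type its log2 signal was 12.38, 12.31 and 12.46 at 7 d and 12.44, 12.42 and 12.50 at 11 d. In gs1;2 it was 7.76, 7.65 and 7.80 at 7 d. On the linear scale the 3 mutant arrays at 7 d stood at 4.06%, 3.75% and 4.16% of the wild-type mean, far below every wild-type array. At 11 d the arrays labelled gs1;2 read 8.37, 8.65 and 11.44, which is 5.91%, 7.17% and 49.4% of the wild-type mean of that age. The array labelled gs1;2, 11 d, replicate 3 therefore stood about 3 log2 units above its group mates and about 1 below the wild type, and goes against its label in the gene that the label is about.

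**Figure D1:**
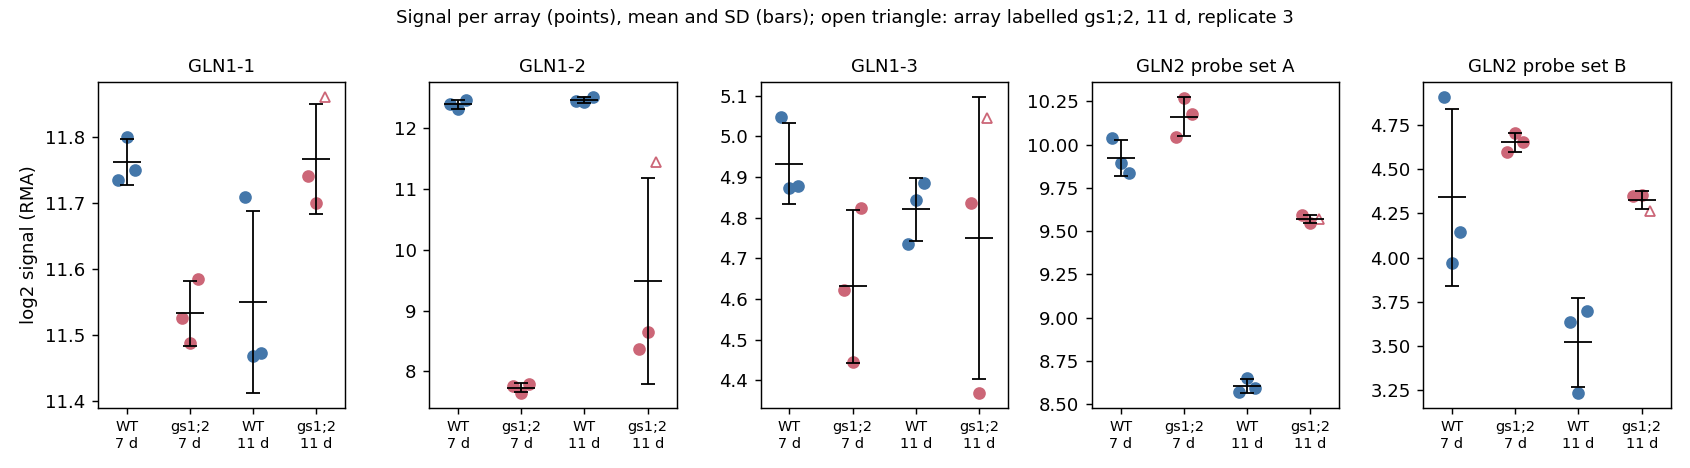
Log2 signal (RMA, vertical axis, a separate scale for each panel) of the 5 glutamine synthetase probe sets on each of the 12 arrays, by genotype and age. Points are arrays, bars give the mean and SD of 3 arrays, and the open triangle is the array labelled gs1;2, 11 d, replicate 3. GLN1-2 is above 12 on the 6 wild-type arrays and below 9 on 5 of the 6 arrays labelled gs1;2, while GLN2 probe set A is lowest in wild type at 11 d.

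Because of that array, the genotype differences of GLN1-1, GLN1-2 and GLN2 at 11 d are given with and without it. Other results use all arrays unless stated. With all arrays GLN1-2 fell by 4.65 (SE 0.57) at 7 d and by 2.97 (SE 0.57) at 11 d in gs1;2 relative to wild type, 25.1-fold and 7.82-fold lower (adjusted p = 0.00289 and 0.00177, limma with Benjamini-Hochberg adjustment over all probe sets tested, as for every adjusted p here). Without the array the difference at 11 d was -3.94 (SE 0.10, adjusted p = 2.95e-09), 15.4-fold lower, with the mutant mean at 6.51% of the wild type. The single array set most of the spread of this probe set. The SD within groups was 0.849 with it and 0.115 without it, against a median of 0.129 over all probe sets. That spread entered the SE at both ages, and without the array the difference at 7 d was -4.65 (SE 0.09, adjusted p = 1.98e-10). The array was singled out by its own GLN1-2 value, so the smaller SEs of GLN1-2 without it follow from that choice.

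By single arrays the GLN1-2 signal in gs1;2 was higher at 11 d than at 7 d. All 3 mutant arrays at 11 d, at 8.37 or more, lay above all 3 at 7 d, at 7.80 or less. With all arrays the age difference was 1.75 (SE 0.57, adjusted p = 0.0849) and missed the threshold of 0.05. Without replicate 3 of gs1;2 at 11 d it was 0.78 (SE 0.10, adjusted p = 0.000818), a 1.71-fold rise. In wild type the age difference was 0.07 (SE 0.57 with all arrays, 0.09 without the array, with a 95% interval of -0.12 to 0.26 in the second fit), and no change was detected. The change of the genotype difference with age, toward the wild type, was 1.68 (SE 0.80, adjusted p = 0.174) with all arrays and 0.71 (SE 0.13, adjusted p = 0.00316) without the array. The fits without the array leave 2 mutant arrays at 11 d and drop an array chosen by its GLN1-2 value. Their adjusted p-values for GLN1-2 are therefore not independent evidence of a rise or of a change.

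The array was placed between the genotypes in other probe sets as well, on a scale where 0 is the wild-type 11 d mean and 1 the mean of its 2 mates. For GLN1-2 its place was 0.26, nearer the wild type, whereas for GLN2 it was 1.00 by probe set A and 0.89 by probe set B. Of 47 other probe sets that differed by genotype in the same direction at both ages, by at least 1 log2 unit in a fit without the array, 34 put it nearer the mutant mates and 13 nearer the wild type, with a median place of 0.94. Of 209 such probe sets with no minimum size, 143 put it nearer the mates and 66 nearer the wild type (median 0.74). Most probe sets that separate the genotypes thus placed the array with gs1;2, and GLN1-2 did not.

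**Figure D2:**
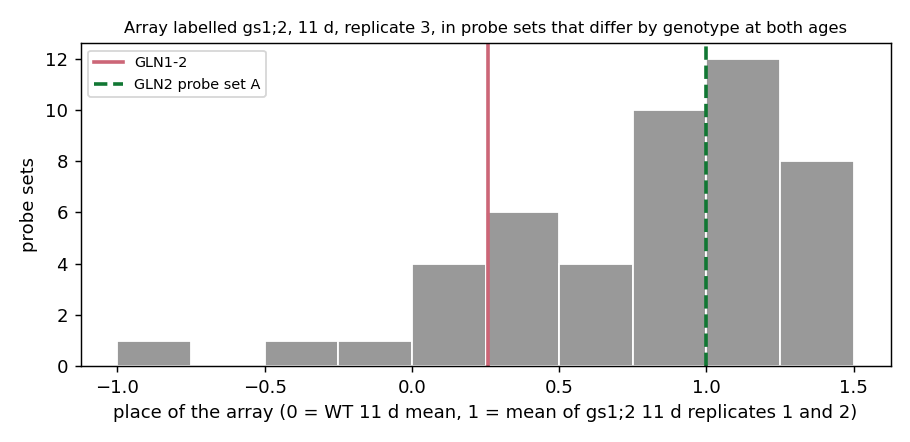
Number of probe sets (vertical axis) by the place of the array labelled gs1;2, 11 d, replicate 3 (horizontal axis, 0 for the mean of the wild-type 11 d arrays and 1 for the mean of gs1;2 11 d replicates 1 and 2), for 47 probe sets outside the family that differ by genotype at both ages by at least 1 log2 unit. The solid line is GLN1-2 at 0.26 and the dashed line GLN2 probe set A at 1.00, and 34 of the 47 probe sets lie nearer 1 than 0.

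GLN1-1, which encodes a cytosolic form as GLN1-2 does, had group means between 11.53 and 11.77. Its log2 signal at 7 d was 11.74, 11.80 and 11.75 in wild type and 11.53, 11.49 and 11.59 in gs1;2. The mutant arrays were all lower, with no overlap, and the difference of -0.23 (SE 0.08, 95% interval -0.40 to -0.05) put gs1;2 at 85.3% of wild type, with an adjusted p of 0.191 that missed the threshold. At 11 d the signal was 11.71, 11.47 and 11.47 in wild type and 11.74, 11.70 and 11.86 in gs1;2. Here the groups overlapped slightly, since wild-type replicate 1 lay just above the lowest mutant array, and the mutant mean was the higher one. The difference was 0.22 (SE 0.08, 95% interval 0.04 to 0.39, adjusted p = 0.0700), or 116% of wild type, and 0.17 (adjusted p = 0.218) without replicate 3 of gs1;2 at 11 d. It was 0.30 with an adjusted p of 0.0155 without replicate 1 of wild type at 11 d, so 1 array decided on which side of the threshold the difference fell.

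The change of the genotype difference of GLN1-1 with age did pass. It amounted to 0.45 (SE 0.11, 95% interval 0.20 to 0.69, adjusted p = 0.0149), and to 0.40 (SE 0.12, adjusted p = 0.0378) without the array that goes against its label. The signal was 0.21 lower at 11 d than at 7 d in wild type (adjusted p = 0.0653) and 0.23 higher in gs1;2 (adjusted p = 0.108), and neither age difference passed alone. The wild-type difference reached -0.29 (adjusted p = 0.0140) without wild-type replicate 1 at 11 d. By group mean the order was gs1;2 at 11 d (11.77 ± 0.08, SD, n = 3), wild type at 7 d (11.76 ± 0.03), wild type at 11 d (11.55 ± 0.14) and gs1;2 at 7 d (11.53 ± 0.05). The first pair and the last pair in that order differed by less than their SDs. The 95% intervals of its genotype differences, -0.40 to -0.05 at 7 d and 0.04 to 0.39 at 11 d, stand beside a fall of GLN1-2 of 4.65 at 7 d.

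GLN1-3, the form known from the spikelet, read close to the array median throughout. Its log2 signal was 5.05, 4.87 and 4.88 in wild type and 4.62, 4.45 and 4.82 in the mutant at 7 d. At 11 d it was 4.73, 4.84 and 4.88 in wild type and 4.84, 4.37 and 5.05 in the mutant. The mutant arrays were lower than the wild type at 7 d, by a narrow gap, and spread across the wild-type range at 11 d. No contrast passed. The genotype difference was -0.30 (95% interval -0.63 to 0.02, adjusted p = 0.344) at 7 d and -0.07 (95% interval -0.39 to 0.25, adjusted p = 0.796) at 11 d. Detection calls were not used here, so whether this probe set stood above background is unknown, and 87.6% of probe sets had a smaller SD within groups.

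**Figure D3:**
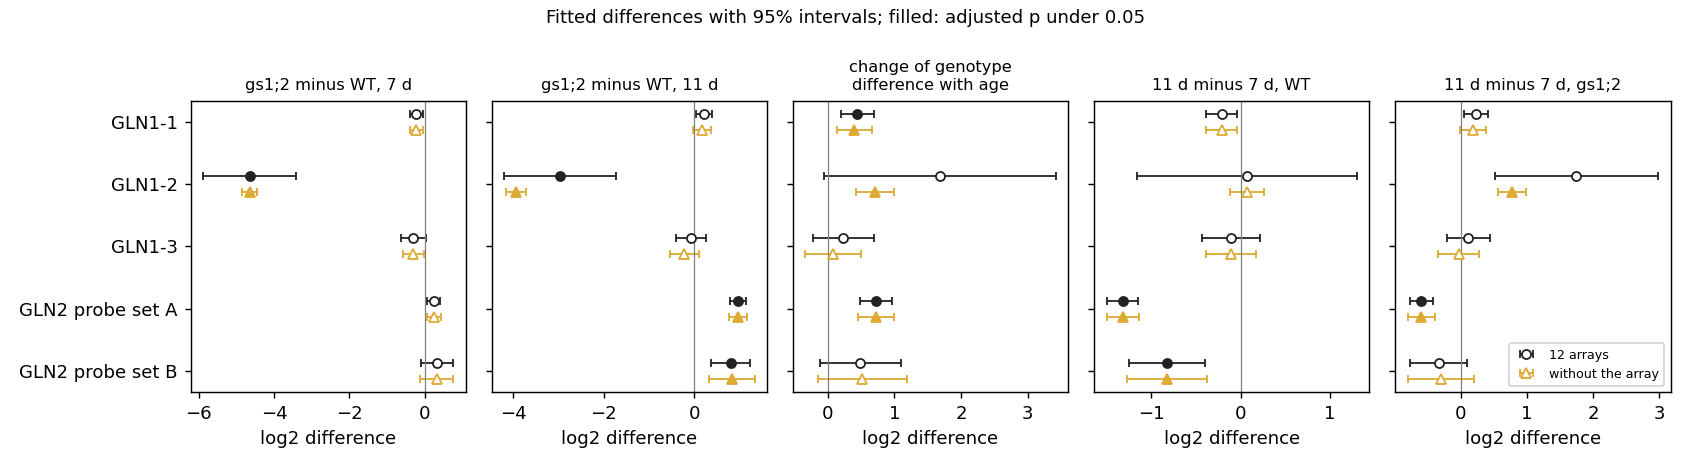
Fitted log2 differences (horizontal axis, a separate scale for each panel) of the 5 probe sets with their 95% intervals, for gs1;2 minus wild type at each age, the change of that difference with age, and 11 d minus 7 d in each genotype. Circles use 12 arrays, triangles leave out the array labelled gs1;2, 11 d, replicate 3, and filled symbols have an adjusted p under 0.05. GLN1-2 is far below 0 in both genotype panels, GLN2 is above 0 at 11 d and below 0 in the age panel of wild type, and the GLN1-3 symbols are open throughout.

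GLN2, the plastid form, fell with age in both genotypes and was higher in gs1;2 than in wild type at 11 d. Probe set A read 10.04, 9.89 and 9.84 in wild type and 10.04, 10.27 and 10.17 in gs1;2 at 7 d. At 11 d it read 8.57, 8.65 and 8.59 in wild type and 9.60, 9.55 and 9.57 in gs1;2. Both genotypes were lower at 11 d than at 7 d with no overlap, and the wild type dropped further than the mutant. Wild type fell by 1.32 (SE 0.08, adjusted p = 5.73e-07), to 40.1% of its signal at 7 d. In gs1;2 the signal fell by 0.59 (SE 0.08, adjusted p = 0.000581), to 66.4%.

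The mutant therefore had the higher GLN2 signal at 11 d. The difference was 0.97 (SE 0.08, 95% interval 0.80 to 1.14, adjusted p = 3.45e-06), 1.95-fold, and single mutant arrays stood at 199%, 193% and 195% of the wild-type mean. The array labelled gs1;2, 11 d, replicate 3 was no exception here, and without it the difference was 0.97 as well (adjusted p = 2.58e-05). At 7 d the groups were only just apart, and the difference of 0.24 (SE 0.08, 95% interval 0.07 to 0.41, adjusted p = 0.164) missed the threshold. The increase of the genotype difference between the ages was 0.73 (SE 0.11, adjusted p = 0.000628), and 0.73 (adjusted p = 0.00184) without the array. In order of group means, gs1;2 at 7 d (10.16 ± 0.11) and wild type at 7 d (9.92 ± 0.10) were followed by gs1;2 at 11 d (9.57 ± 0.02) and wild type at 11 d (8.60 ± 0.04), and the first pair was not shown to differ.

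Probe set B of GLN2 was dim, below the array median on every array, and its differences had the same signs. It read 4.91, 3.97 and 4.15 in wild type and 4.60, 4.71 and 4.65 in the mutant at 7 d, where the groups overlapped. At 11 d it read 3.63, 3.23 and 3.69 in wild type and 4.35, 4.36 and 4.27 in the mutant, with no overlap. The genotype difference at 11 d was 0.80 (SE 0.20, adjusted p = 0.00847), or 0.83 (adjusted p = 0.0194) without the array that goes against its label, and the wild type fell by 0.82 (SE 0.20, adjusted p = 0.00593) from 7 to 11 d. Its age difference in gs1;2 (-0.33, SE 0.20, adjusted p = 0.408), its genotype difference at 7 d (0.31, SE 0.20, adjusted p = 0.462) and the change of the genotype difference (0.49, SE 0.28, adjusted p = 0.259) did not pass. The SD within groups was 0.282 for probe set B and 0.0803 for probe set A, and the wild-type 7 d arrays of probe set B spread over almost 1 log2 unit.

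Of the 5 family probe sets, 1 passed for the genotype difference at 7 d, beside 0.972% of all probe sets. At 11 d 3 passed, beside 25.9% of all probe sets. For the change of the genotype difference with age 2 passed, beside 20.6%. For the age difference 2 passed in wild type, beside 31.8%, and 1 in gs1;2, beside 8.47%. With the array labelled gs1;2, 11 d, replicate 3 left out, the family counts were 1, 3 and 3 for the genotype contrasts and their change, beside 1.06%, 23.6% and 19.1% of all probe sets, and 2 for age in gs1;2, beside 6.51%. The further passes, for the change and for age in gs1;2, were those of GLN1-2, the gene whose value singled out the array. Where 20.6% to 31.8% of the array passed, a count of 2 or 3 among 5 probe sets is not read as particular to the family. The genotype contrast at 11 d and the age contrast in wild type use the same 3 wild-type arrays, so the GLN2 results of both rest in part on those arrays.

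The balance of the plastid form and GLN1-1 was also followed within arrays, as the log2 signal of GLN2 probe set A minus that of GLN1-1. The value itself depends on the probes, and only its change between groups can be read. It was -1.84 (range -1.91 to -1.70) in wild type and -1.37 (-1.48 to -1.22) in the mutant at 7 d, and -2.95 (-3.14 to -2.82) and -2.20 (-2.29 to -2.15) at 11 d. The groups did not overlap at either age. The balance stood 0.47 further toward GLN2 in the mutant at 7 d and 0.75 at 11 d, and moved away from GLN2 between the ages by -1.11 in wild type and -0.82 in the mutant. These are descriptions without a test.

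Fd-GOGAT, the enzyme that uses the glutamine made by GLN2 in plastids, fell with age in both genotypes as GLN2 did. Its log2 signal was 10.39, 10.42 and 10.46 in wild type and 10.53, 10.75 and 10.74 in the mutant at 7 d, and 10.04, 9.99 and 10.04 in wild type and 10.25, 10.20 and 10.12 in the mutant at 11 d. The mutant arrays were higher at both ages with no overlap, and all arrays at 11 d were lower than those at 7 d. The share of all probe sets without overlap was not counted, so here and above the lack of overlap only describes the values. The fall with age passed in wild type (-0.40, SE 0.08, adjusted p = 0.0013), beside 53.8% of all genes passing. It also passed in the mutant (-0.48, SE 0.08, adjusted p = 0.00174), beside 15.5%. The genotype difference did not pass at 7 d (0.25, adjusted p = 0.137) or at 11 d (0.17, adjusted p = 0.135).

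Photorespiration sets free the ammonium that GLN2 is known to recapture, and 6 of its genes could be measured. The list of 25 symbols matched only glycolate oxidase and catalase genes, so the step that releases the ammonium was not measured. With genes counted by their brightest probe set, none passed for genotype at 7 d. At 11 d 4 fell in the mutant and 0 rose, beside 46.7% of all genes passing. GLO1, a glycolate oxidase, fell by 0.62 (SE 0.07, adjusted p = 4.88e-05) and CAT-B, a catalase, by 0.54 (SE 0.08, adjusted p = 0.000355). GLO5 fell by 0.79 and GLO3 fell by 0.23, and without the array labelled gs1;2, 11 d, replicate 3 the count was 3, since GLO3 then had an adjusted p of 0.0542. The other 2 genes did not pass, and GLO4 was higher in the mutant by 0.25 (adjusted p = 0.0772). GLN2 was higher in the mutant at 11 d while the genes that passed were lower. With 6 genes, their count is not read as particular to the list, and a relation of GLN2 to photorespiration was not tested. With age in wild type 2 rose and 1 fell, a share near the 53.8% of all genes that passed.

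Green-leaf markers moved with GLN2 by genotype at 11 d but not by age in the mutant. Of 13 measured, 12 rose in the mutant at 11 d and 0 fell, with or without that array, beside 46.7% of all genes passing, with a median difference of 0.90 over the list and 0.02 over all genes. At 7 d 1 rose, GLK2, a transcription factor gene of chloroplast development (0.45, adjusted p = 0.0377). PORA, a protochlorophyllide reductase, was 2.25 higher (SE 0.18, adjusted p = 3.01e-06) and PSAG, a photosystem I subunit, 1.60 higher (SE 0.13, adjusted p = 2.88e-06). The mean of the list was 8.76 to 8.93 on wild-type and 9.71 to 10.05 on mutant arrays at 11 d, and 8.84 to 9.27 and 9.18 to 9.30 at 7 d. From 7 to 11 d in the mutant, 6 of the markers rose, PSAG by 2.50 and PORA by 1.81, and 1 fell (CHLD, a magnesium chelatase subunit, by 0.50), beside 15.5% of all genes passing, while GLN2 fell. In wild type 1 rose and 5 fell with age, PORB by 1.05 among them, a share below the 53.8% of all genes that passed. The part of green tissue in the GLN2 difference at 11 d was not tested.

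**Figure D4:**
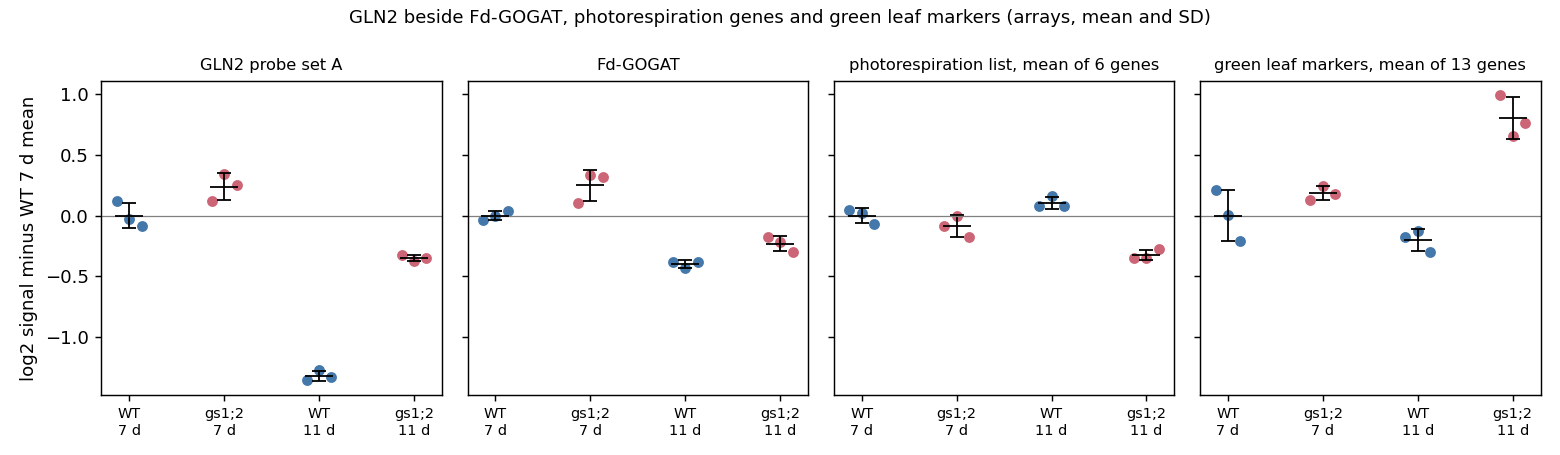
Log2 signal minus the wild-type 7 d mean (vertical axis, shared by the panels) of GLN2 probe set A, Fd-GOGAT, the mean of 6 photorespiration genes and the mean of 13 green-leaf markers, by genotype and age. Points are arrays and bars give the mean and SD of 3 arrays. In gs1;2 at 11 d GLN2 and Fd-GOGAT lie below their level at 7 d, while the green-leaf mean lies above it and the photorespiration mean is the lowest of the 4 groups.

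Markers of other tissues that a shoot base could hold were counted in the same way at 11 d, when 46.7% of all genes passed. Root markers rose in 4 of 6 cases in the mutant and fell in 0, and the list mean was 5.88 to 6.02 in wild type and 6.50 to 6.56 in the mutant. CHARK (0.40 higher, adjusted p = 0.0234) is counted among them but matched only by its synonym OsCRL4, so its place as a root marker is uncertain. Seed and spikelet genes fell in 3 of 9 cases and rose in 0 (4.90 to 5.13 in wild type, 4.06 to 4.19 in the mutant). Phloem markers rose in 3 and fell in 2 of 7 cases (9.41 to 9.48 and 9.07 to 9.15). Meristem markers rose in 1 and fell in 2 of 5 cases (8.64 to 8.82 and 8.56 to 8.65). These counts compare the mutant with wild type at 11 d, the group whose growth condition is in doubt. At 7 d the root mean was 6.31 to 6.48 in wild type and 6.13 to 6.35 in the mutant. The seed mean was then 4.10 to 4.29 and 4.06 to 4.29, the phloem mean 8.74 to 8.90 and 8.81 to 8.97, and the meristem mean 8.46 to 8.64 and 8.45 to 8.60. The median difference over each list was 0.49 for root, -0.07 for seed, 0.20 for phloem and 0.01 for meristem. The phloem mean was thus lower in the mutant against the direction of its median, with SWEET14 at -2.77 and SUT1 at -1.13. With age in wild type SWEET14 rose by 2.75 and SUT1 by 2.20. In the seed list the largest difference was that of AMY1.3 (-5.16), which rose by 4.42 with age in wild type. Its age difference in the mutant was -1.18 (adjusted p = 0.134). The lower means of these lists are therefore not read as a fall of the whole list. Without the array that goes against its label the counts were 3 and 0 for root, 0 and 3 for seed, 2 and 2 for phloem and 0 and 1 for meristem. At 7 d 0 genes of these 4 lists passed, and 1 phloem gene did without the array. The share of seed genes that passed at 11 d was below that of all genes, and the other shares rest on 5 to 7 genes. The part of these tissues in the family's values at 11 d was not tested.

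Among 16 measured genes of nitrogen uptake and assimilation outside the family, NIA1, a nitrate reductase gene, was the 1 gene that passed at 7 d, when 1.25% of all genes did. It was 1.44 higher in the mutant (SE 0.21, adjusted p = 0.0104), at a group mean of 6.89 against 5.45. At 11 d 3 of the 16 rose and 3 fell, a share below the 46.7% of all genes that passed. Without the array labelled gs1;2, 11 d, replicate 3 the counts were the same, but the genes that rose were not all the same. AMT1-2, an ammonium transporter gene, was 3.09 higher (SE 0.17, adjusted p = 2.67e-07) and NIA1 3.83 higher (SE 0.21, adjusted p = 3.18e-07). GDH2, for a glutamate dehydrogenase, fell by 3.15 (SE 0.15, adjusted p = 1.07e-07). GLT2, for an NADH-dependent GOGAT, fell by 1.67 (SE 0.18, adjusted p = 3.04e-05). The median over the 16 genes was 0.11.

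The genotype difference of 4 of the 16 genes changed with age, beside 38.2% of all genes. It rose for AMT1-2 and NIA1 and fell for GDH2 and GLT2, and GLT2 went from 0.71 (adjusted p = 0.0931) at 7 d to -1.67 at 11 d. With age in wild type 2 rose and 6 fell, beside 53.8% of all genes passing. GDH2 rose by 3.00 in wild type (SE 0.15, adjusted p = 1.98e-07), and its age difference in the mutant was -0.34 (SE 0.15, adjusted p = 0.227). The genotype difference of GDH2 at 11 d thus lay mostly in the rise of wild type, whose growth condition at 11 d is in doubt. In the mutant 1 rose and 5 fell, beside 15.5%, or 2 and 4 without the array labelled gs1;2, 11 d, replicate 3. AMT1-2 rose by 2.82 there (SE 0.17, adjusted p = 1.49e-06), and GLB, which encodes a PII-type nitrogen sensor protein, fell by 0.52 (SE 0.08, adjusted p = 0.00191).

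Genes with the course most like each member were sought by Pearson correlation over the 12 arrays, among 1381 probe sets of named genes whose group means ranged over at least 0.5. The arrays fall into 4 groups, so these values mostly reflect group means and carry no test. For GLN2 the highest were CIPK6, a calcium-regulated protein kinase gene, OsYUCCA1, for an auxin synthesis enzyme, and PPO, for a protoporphyrinogen oxidase, each at 0.98. For GLN1-1 they were GT43C (0.87), OsPPT3 (0.85) and rgp2 (0.84). For GLN1-2 they were GRXC15 (0.84), a glutaredoxin gene, Chia1d (0.84), a chitinase gene, and ILL5 (0.80). The course of GLN1-3 had no close match, with 0.57 for OsRPN5 and GT43C and 0.56 for GRXC15. GRXC15 also put the array labelled gs1;2, 11 d, replicate 3 toward the wild type, at 10.30 against 9.20 in its mates and 10.54 in wild type. Chia1d, at 3.85 against 3.83 and 5.19, did not. The correlations that picked these genes included that array, so the value of GRXC15 there is not separate evidence about the array. Without the array the correlations with GLN1-2 were 0.84 for GRXC15, 0.91 for Chia1d and 0.83 for ILL5.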

How the data were processed

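Signals came from the Affymetrix Rice Genome Array. The authors deposited log2 signals. The submitters' processing notes name RMA (robust multi-array averaging) and R 3.1.0 for them, and the sources used here give no other RMA settings. Of 57381 probe sets, 187 controls were left out. Probe sets were named from the platform annotation, and symbols were brought up to date with RefSeq's genes of assembly ASM3414082v1, from which no coordinates were taken.

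All 12 arrays were fitted with limma 3.58.1 (R 4.3.3), with 4 group means and empirical Bayes moderation (8 residual degrees of freedom). P-values are two-sided, adjusted by Benjamini-Hochberg over 57194 probe sets per contrast, with a threshold of 0.05. The fit was tested on simulated data. Signal over background is unknown, and 3 arrays per group limit the precision.

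Pathway and marker lists were matched by symbol, a gene counted by its brightest probe set; GLU1 and AS2, names of other genes, were left out of the nitrogen list. Named from a list are its up to 4 genes with the smallest p in a contrast, beside Fd-GOGAT (listed as GLU) and GLO4. Members, lists and rules were chosen with earlier results of these data known. Alternatives were other moderation, filters, scalings and weights, a minimum change, a replicate block and leaving out each array. Title numbers 8 and 9 occur in both genotypes at 7 d; deviations of arrays sharing one correlated at 0.047 and 0.051, so they were not treated as pairs.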

Additional observations from a re-analysis of the deposited data

Results flagged for a closer look

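The genotype difference of GLN1-1 changed with age by 0.45 on the log2 scale (limma adjusted p = 0.0149), from -0.23 at 7 d to 0.22 at 11 d, and it was singled out because the difference between the ages passed a test of its own. Over the fits that leave out an array, this change ranged from 0.40 to 0.53. The genotype difference of GLN2 probe set A changed by 0.73 (limma adjusted p = 0.000628), from 0.24 at 7 d to 0.97 at 11 d, and was singled out for the same reason. Probe set B of the same gene gave 0.49, which did not pass (adjusted p = 0.259). The wild-type 11 d arrays, whose growth condition is in doubt, enter each of these values.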

How the results depend on the processing

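Over 21 alternative settings, 505 values of single probe sets and contrasts were recomputed, of which 483 kept their direction and their side of the threshold, 13 came to pass, 7 no longer passed and 2 changed sign. Both sign changes were of GLN1-3, which never passed. Its genotype difference at 11 d was 0.12 without replicate 2 of gs1;2 at 11 d (range over left-out arrays -0.22 to 0.12), and its age difference in gs1;2 was -0.0290 without replicate 3 (range -0.0290 to 0.31). With the title number as a replicate block, which left 5 residual degrees of freedom, 0 family probe sets passed at 7 d (GLN1-2 at -4.68, adjusted p = 0.0779), and 133 probe sets of the array passed in place of 556. That fit kept the array labelled gs1;2, 11 d, replicate 3, whose spread enters the SE of GLN1-2 at 7 d. Without that array and with no block, GLN1-2 was at -4.65 at 7 d (SE 0.09, adjusted p = 1.98e-10). The shared numbers were not shown to pair the arrays, and the block could not be applied at 11 d. With a minimum change of 1, the family counts were 1 at 11 d, 0 for the change with age, 1 for wild-type age and 0 for mutant age. The count for mutant age was 2 with trend and robust moderation and 2 with only the groups compared, and ranged from 1 to 2 over left-out arrays. The count ranged from 3 to 4 at 11 d, 2 to 3 for the change with age and 2 to 3 for age in wild type over left-out arrays, and was 1 throughout at 7 d. GLN1-1 at 11 d passed with trend and robust moderation (adjusted p = 0.0168), quantile normalization (0.0448) and array weights (0.0237). Over the array, probe sets passing at 7 d numbered 1183 with trend and robust moderation, 249 with only the groups compared, 321 with array weights and 130 to 1556 over left-out arrays, and for age in gs1;2 3172 with only the groups compared in place of 4846. The causes were not tested. GLN1-2 has 1 probe set, so the planned choice among several was not run.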
